A study of Mus musculus with 12 samples.

Results

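The miR-379 to miR-410 cluster is a long run of microRNA (miRNA) hairpins in the imprinted Dlk1-Dio3 region of mouse chromosome 12. Its members were taken as every row of the deposited count table, either arm, whose name carried one of 38 hairpin names from miR-379 to miR-410. This gave 75 of the 1966 mature miRNAs of the table. Of these, 73 had enough counts to be tested, whereas miR-654-5p and miR-453 had no count in any library. Several members entered the test through their counts at the younger ages alone, since 6 of them had no count in any adult library.

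Libraries of total RNA came from quadriceps of C57BL/6J wild-type mice of 4 ages, postnatal day 1 (P1), P5, P14 and P90, the last being adult. Each age was represented by 3 libraries, none of the mice carried an engineered allele, and no treatment was given in the labels. They form a time course of normal postnatal growth, against which the study set its Mbnl1 knockout muscle, not analysed here. Values are raw read counts per mature miRNA, which were scaled here to library size with trimmed-mean (TMM) factors and are called normalised CPM, so that values compare across libraries. By the study's methods, as many mice were sacrificed at each age as there are libraries, although the labels tie no library to an animal.

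A hairpin is cut out of a longer transcript and then opened into a short duplex, whose 5p and 3p strands are the arms counted here. One of the arms is usually kept by an Argonaute protein, and bases 2 to 8 of that arm, the seed, pair with target mRNAs. The Dlk1-Dio3 region carries paternally expressed protein-coding genes, among them Dlk1 and Rtl1, and maternally expressed noncoding RNAs, among them Meg3, Rian and Mirg, from which its small RNAs are processed. The miRNAs of the cluster are best known from embryo, placenta and brain. For example, miR-134 limits the size of dendritic spines in neurons.

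RefSeq gave a hairpin position on GRCm38 for 36 of the 38 hairpins, all but miR-666 and miR-544. They span chr12:109709060-109743795, a stretch of 34736 bases, and all but miR-299b lie on the plus strand. RefSeq places 9 of them inside Mirg, which it draws at chr12:109734981-109749458. GENCODE, which was read on its own build and holds all 38 hairpins, has a wider model of Mirg, with 9 hairpins in exons, 4 in introns and 25 outside it. MiR-299b is annotated on the strand opposite to miR-299a at the same place. Their facing arms (miR-299a-5p with miR-299b-3p and miR-299a-3p with miR-299b-5p) had identical counts in 8 and in 6 of the 12 libraries, with differences of at most 9 and 22 counts, so each pair is one readout whose strand cannot be told from the table.

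A mature sequence was found in RefSeq (GRCm38.p6) for 71 of the 75 members, and none was found for miR-376c-3p, miR-487b-3p, miR-539-3p and miR-485-5p. The sequences below are shown 5′ to 3′ with the seed in capitals. The first set holds the abundant members of the newborn muscle for which a sequence was found.
mmu-miR-379-5p: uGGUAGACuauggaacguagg
mmu-miR-411-5p: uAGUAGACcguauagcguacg
mmu-miR-495-3p: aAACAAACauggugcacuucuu
mmu-miR-541-5p: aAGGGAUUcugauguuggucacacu
mmu-miR-381-3p: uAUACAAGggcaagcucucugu
mmu-miR-543-3p: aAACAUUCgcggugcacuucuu
mmu-miR-410-3p: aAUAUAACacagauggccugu
mmu-miR-369-3p: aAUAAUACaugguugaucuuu
mmu-miR-411-3p: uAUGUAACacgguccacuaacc

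The second set shows arms of hairpins whose 5p to 3p ratio is described further below. The 3p arms of miR-543 and miR-369 stand in the first set, and of miR-485 only the 3p arm had a sequence.
mmu-miR-376b-5p: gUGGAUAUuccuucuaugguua
mmu-miR-376b-3p: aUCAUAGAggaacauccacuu
mmu-miR-154-5p: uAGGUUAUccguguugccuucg
mmu-miR-154-3p: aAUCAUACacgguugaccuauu
mmu-miR-543-5p: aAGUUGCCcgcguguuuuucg
mmu-miR-369-5p: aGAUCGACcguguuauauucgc
mmu-miR-485-3p: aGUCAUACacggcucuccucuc

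In 7 groups, members of the cluster shared a seed. Members of 5 of these groups that are not shown above are given here, because a target site cannot tell members of a group apart by the seed.
mmu-miR-379-3p: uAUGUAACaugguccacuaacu
mmu-miR-1193-5p: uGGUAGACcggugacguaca
mmu-miR-410-5p: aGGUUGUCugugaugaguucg
mmu-miR-494-5p: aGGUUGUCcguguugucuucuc
mmu-miR-376c-5p: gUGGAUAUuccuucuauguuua
mmu-miR-1197-5p: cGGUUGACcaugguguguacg
mmu-miR-758-5p: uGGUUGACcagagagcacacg

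MiR-379-5p shares its seed with miR-1193-5p, miR-379-3p with miR-411-3p, miR-410-5p with miR-494-5p, miR-376b-5p with miR-376c-5p, and miR-1197-5p with miR-758-5p. The other groups are miR-299a-3p with miR-299b-3p and miR-496a-5p with miR-453, which had no count. Some members are nearly identical over their whole length. MiR-376c-5p and miR-376b-5p differed at 1 of 22 bases and miR-379-3p and miR-411-3p at 2 of 22, and reads with sequencing errors could be split between such members by the authors' counting.

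Library totals were 20363495 to 53126984 counts and were highest at P90. The members together held 13.6 to 14.0% of all counts at P1. This share was 10.7 to 11.3% in the P5 libraries, 6.65 to 7.70% in the P14 libraries and 0.0553 to 0.0843% in the adult libraries. The 95% Wilson interval reached at most 0.0135 percentage points above or below a share, which covers counting error only. In the adult libraries the cluster was read by 29363 to 36908 counts, compared with at least 1355123 at each younger age. The TMM factors of the adult libraries were 0.247 to 0.384, so normalised CPM of every miRNA, cluster members included, lie well above raw CPM there. Those of the younger libraries were 1.24 to 1.73, so normalised CPM lie under raw CPM in them. The 7 muscle miRNAs of a marker list were present in every library, with a summed 154584 to 208212 normalised CPM at P1 and 1455652 to 2374556 at P90. Of these, 3 were higher and 3 lower at P90, beside 25.2% and 41.2% of all miRNAs tested. The sum was carried by miR-1a-3p, whose mean went from 160553 to 1738362 normalised CPM, whereas miR-206-3p (log2FC -3.78), miR-499-5p (-3.99) and miR-208b-3p (-3.85) fell.

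**Figure D1:**
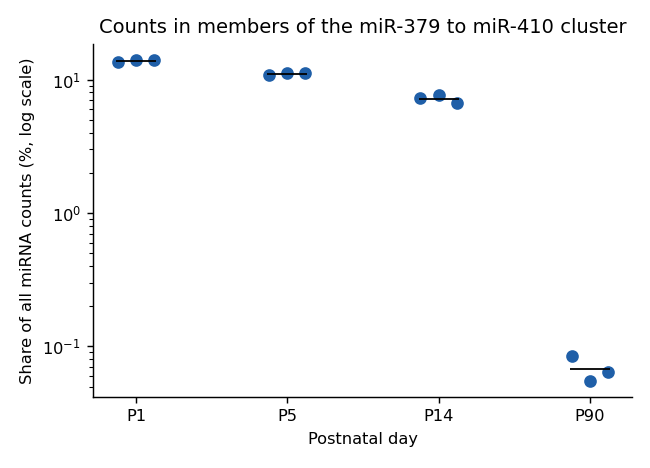
Share of all miRNA counts (percent, log axis) held by the members of the cluster in each of the 12 libraries by postnatal day. Points are libraries and bars are means of 3. The shares fell from 13.6 to 14.0% at P1 to 0.0553 to 0.0843% at P90, and no library of one age overlapped with another age.

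Across the 4 ages, 72 of the 73 members tested differed (edgeR quasi-likelihood F-test, adjusted P value, Padj, under 0.05), compared with 72.4% of the 809 miRNAs tested. The exception was miR-1197-5p, at 0 to 0.303 normalised CPM. From P1 to P90, 71 members fell and 1, miR-654-3p, rose, whereas 66.4% of all miRNAs tested were called and 41.2% were called lower. Members without an adult count could only be called lower. Without the rows of miR-299b, which repeat the miR-299a readout, 69 of 71 fell. The median log2 fold change (log2FC) of the members was -5.55, and the median over all miRNAs tested was -0.72. With the 6 members without adult counts set to their bound, the median of the members was -5.25. In bulk muscle, fewer cells that make these miRNAs and less of them per cell cannot be told apart.

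The most abundant member of newborn muscle was miR-379-5p, from the first hairpin of the cluster. It stood at 14011, 12897 and 12332 at P1, 12521, 13504 and 12995 at P5, 8359.9, 6292 and 8466 at P14 and 488, 342 and 583 at P90 normalised CPM in the 3 libraries of each age. Its log2FC was -0.76 (SE 0.17, Padj = 0.00165 by edgeR) for P14 versus P1 and -4.80 (SE 0.20, Padj = 4.22e-12 by edgeR) for P90 versus P1, a 27.8-fold lower level in the adult with TMM factors. With other scalings and fits the adult log2FC ranged from -7.09 to -2.93, a spread that the SE does not cover. The adult folds of the members below were likewise obtained with TMM factors and depend on the scaling. All P14 libraries lay under all P1 libraries, and all P90 libraries lay far under P14.

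MiR-411-5p, the neighbour of miR-379, was read at 12499.8, 10173 and 11498 at P1, 11924, 14007 and 12924 at P5, 8594, 7966 and 9200.3 at P14 and 502, 386 and 681 at P90 normalised CPM. The P14 libraries lay under the P1 libraries without overlap, but the log2FC of -0.41 (SE 0.17, Padj = 0.0602 by edgeR) did not pass the threshold, and it did so under several alternatives. For P90 versus P1 the log2FC was -4.44 (SE 0.20, Padj = 7.24e-12 by edgeR). Among the 10 most abundant members this was the smallest adult change.

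MiR-541-5p stayed near its newborn level through the second week. Its values were 5853, 5821 and 5799.6 at P1, 6977, 6606 and 6172 at P5, 5635, 5598 and 5503 at P14 and 202, 126 and 209 at P90 normalised CPM, with a log2FC of -0.06 (SE 0.16, Padj = 0.775 by edgeR) for P14 versus P1. The sign of this small value turned under 4 alternatives, between 0.02 and 0.25. In the adult it was 32.6-fold lower, with a log2FC of -5.03 (SE 0.19, Padj = 1.17e-12 by edgeR).

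MiR-495-3p, by contrast, had lost most of its level by P14. The libraries gave 7272, 5845 and 6788 at P1, 6551, 7034 and 6072 at P5, 921, 876 and 1028 at P14 and 82.1, 61.2 and 106 at P90 normalised CPM, with nearly equal levels at P1 and P5 and much lower ones at P14. The log2FC was -2.80 (SE 0.18, Padj = 2.17e-08 by edgeR) for P14 versus P5 and -3.50 (SE 0.19, Padj = 1.03e-10 by edgeR) for P90 versus P14.

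MiR-543-3p, which has the same last 12 bases as miR-495-3p, had also lost most of its level by P14. It was read at 5042, 4631 and 4735 at P1, 3405, 3830.5 and 3326 at P5, 454, 574 and 456 at P14 and 27.8, 21.1 and 32.2 at P90 normalised CPM, so that each age lay under the one before it without overlap. Its log2FC was -3.28 (SE 0.17, Padj = 1.20e-09 by edgeR) for P14 versus P1 and -7.48 (SE 0.20, Padj = 1.17e-13 by edgeR) for P90 versus P1, 178-fold lower.

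MiR-369-3p was nearly as high at P5 as at P1. Values of 3514, 3211 and 3842 at P1, 3103, 3322 and 3155 at P5, 390.3, 234 and 383 at P14 and 41.3, 46.0 and 72.6 at P90 normalised CPM were obtained, and the log2FC was -3.39 (SE 0.23, Padj = 1.46e-08 by edgeR) for P14 versus P1. Of the P14 libraries, replicate 2 was the lowest.

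The other abundant members fell by 1.69 to 2.27-fold by P14 and then further. MiR-487b-3p gave 5876, 5351 and 6113 at P1, 5869, 5886 and 5460.1 at P5, 2754, 2515 and 2378 at P14 and 44.5, 33.0 and 45.1 at P90 normalised CPM, with log2FCs of -1.181 at P14 and -7.14 at P90 against P1 (edgeR Padj = 2.78e-06 and 8.97e-14). MiR-410-3p, the last hairpin of the cluster, gave 4158, 3442 and 3746 at P1, 3398, 3948 and 4139 at P5, 1792, 2039 and 1817 at P14 and 33.7, 24.8 and 38.7 at P90 normalised CPM, with log2FCs of -1.01 and -6.87 (edgeR Padj = 5.71e-05 and 1.33e-13). In both of them the P1 and P5 libraries overlapped, whereas neither P14 nor P90 overlapped with any earlier age.

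MiR-381-3p was read at 5309, 4256 and 5119 at P1, 5478, 5795 and 4939 at P5, 3205, 2952 and 2549 at P14 and 84.2, 61.3 and 106 at P90 normalised CPM, and its log2FCs against P1 were -0.75 at P14 and -5.87 at P90 (edgeR Padj = 0.00189 and 9.98e-13). MiR-411-3p was read at 3661, 3161 and 3615 at P1, 3399, 3979 and 3579 at P5, 1638, 1477 and 1597 at P14 and 56.9, 35.8 and 57.6 at P90 normalised CPM, and its log2FCs were -1.15 and -6.12 (edgeR Padj = 2.47e-05 and 3.42e-13). Thus the adult fall of the 3p arm of miR-411 was 69.5-fold, and that of its 5p arm 21.8-fold.

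**Figure D2:**
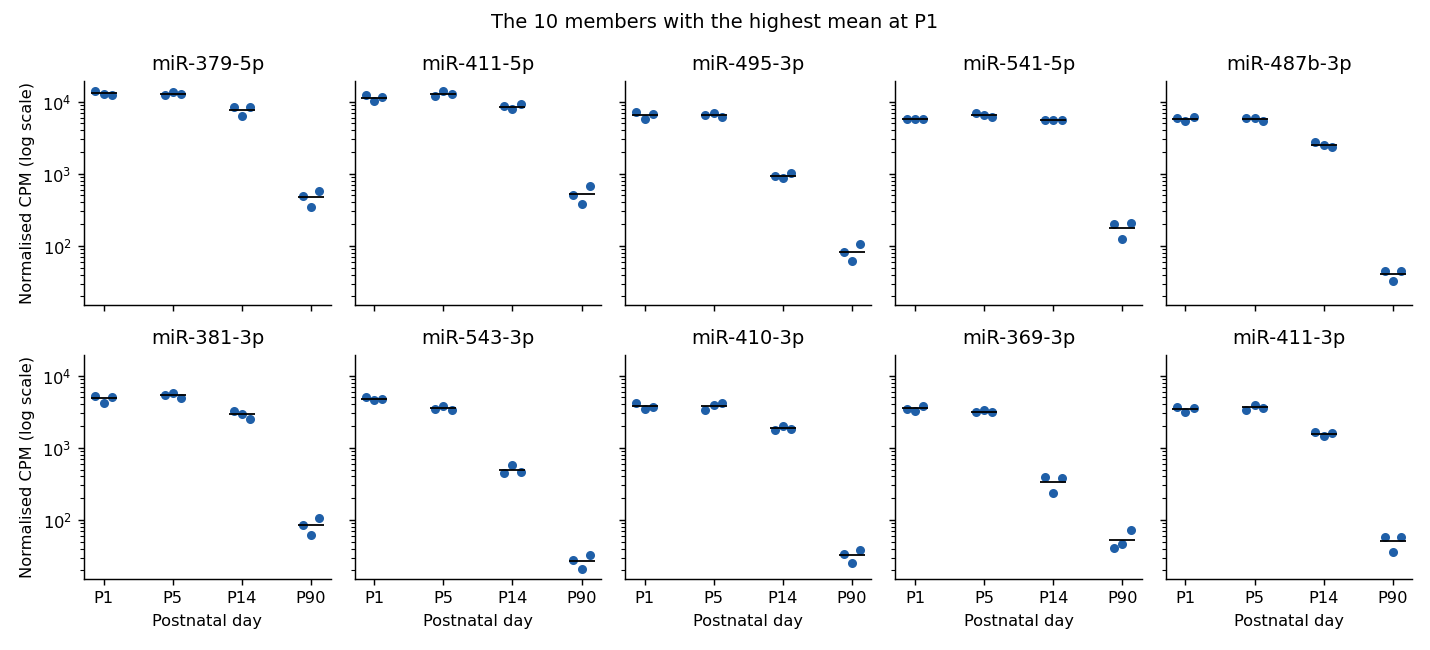
Normalised CPM (log axis) of the 10 members with the highest mean at P1, in each library by postnatal day. Points are libraries and bars are means of 3. MiR-495-3p, miR-543-3p and miR-369-3p had dropped several-fold at P14, whereas miR-541-5p was at 5503 to 5635 at P14 and 5800 to 5853 at P1.

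During the first days few members were called with TMM factors. Of 73 members, 3 were called for P5 versus P1, which is 4.11% beside 4.45% of all miRNAs tested. All 3 were lower (1.73% of all miRNAs) and none was higher (2.72%). The median log2FC of the members was -0.0045 and that of all miRNAs was 0.0067. The 3 called members are 3p arms, namely miR-376b-3p, miR-485-3p and miR-154-3p. With library totals 10 members were called, all lower, with medians of -0.31 for the members and -0.30 for all miRNAs. With only the P1 and P5 libraries in the fit, 13 were called, 11 lower and 2 higher. The sign of 28 of the 73 members differed between the scalings.

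MiR-376b-3p stood at 2263, 2029 and 2059.5 at P1, 515, 682 and 632 at P5, 80.9, 80.6 and 89.5 at P14 and 11.4, 7.37 and 13.7 at P90 normalised CPM, so that it fell without overlap at every step. Its log2FC for P5 versus P1 was -1.80 (SE 0.18, Padj = 6.30e-05 by edgeR), and it reached -4.66 (SE 0.21, Padj = 3.21e-10 by edgeR) at P14 and -7.62 (SE 0.24, Padj = 2.65e-13 by edgeR) at P90 against P1. MiR-376a-3p, a near copy that differs at 3 of 21 bases, was not called at P5 but had fallen at P14, from 174 ± 19.9 to 12.8 ± 2.74 normalised CPM (SD, n = 3).

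MiR-154-3p gave 471, 451 and 475 at P1, 221, 274 and 255 at P5, 24.7, 23.6 and 28.4 at P14 and 6.36, 5.14 and 4.83 at P90 normalised CPM, again with no overlap between P1, P5 and P14. The log2FC was -0.90 (SE 0.14, Padj = 0.00222 by edgeR) for P5 versus P1 and -4.19 (SE 0.16, Padj = 9.50e-11 by edgeR) for P14 versus P1. For miR-485-3p the values were 1728, 1624 and 1537 at P1, 833, 926 and 738 at P5, 132, 196 and 182 at P14 and 14.6, 8.70 and 12.3 at P90, with a log2FC of -0.97 (SE 0.19, Padj = 0.00940 by edgeR) for P5 versus P1. Without the third P5 library its log2FC was -0.90 and no longer passed the threshold. MiR-485 as a whole is known from synapses, where its targets include a synaptic vesicle protein.

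The second week separated the members. For P14 versus P5, 39 members fell and 2 rose, 56.2% of the members beside 44.4% of all miRNAs tested, and the median log2FCs were -0.73 and -0.07. For P14 versus P1, 65.8% of the members were called beside 49.1% of all miRNAs. Of the members 42 fell (28.8% of all miRNAs) and 6 rose (20.3%), with medians of -0.76 and -0.11. The 6 that rose were miR-485-5p, miR-377-5p, miR-381-5p, miR-1193-5p and the facing pair miR-299a-5p and miR-299b-3p, which is a single readout. With upper-quartile factors the P14 calls against P1 were 33 lower and 13 higher, and the median of all miRNAs moved to 0.20.

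The lowest log2FCs for P14 versus P1, among members with at least 10 normalised CPM at P1, were those of miR-376b-3p, miR-154-3p, miR-376a-3p (-3.76), miR-380-3p (-3.52) and miR-410-5p (-3.46). MiR-380-3p was read at 1742, 1546 and 1855 at P1, 902, 1099.8 and 1207 at P5, 161, 145 and 142 at P14 and 8.74, 4.83 and 8.91 at P90 normalised CPM. It was also the member with the most negative adult value in this set, -7.85 (SE 0.26, Padj = 3.35e-13 by edgeR), a 230.2-fold lower level.

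At the other end, miR-485-5p rose from 265 ± 14.8 at P1 to 612 ± 82.2 normalised CPM at P14 (SD, n = 3). Its libraries gave 260.4, 254 and 282 at P1, 362, 388 and 320.0 at P5, 542, 703 and 592 at P14 and 14.2, 8.06 and 12.9 at P90, so that P14 lay above all earlier libraries and P90 far under them. The log2FC was 1.21 (SE 0.18, Padj = 5.04e-05 by edgeR) for P14 versus P1 and -5.71 (SE 0.22, Padj = 4.02e-12 by edgeR) for P90 versus P14.

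MiR-377-5p took the same course at a lower level, at 43.1, 38.2 and 42.4 at P1, 48.6, 59.1 and 58.5 at P5, 81.6, 107 and 83.6 at P14 and 1.43, 0.636 and 0.750 at P90 normalised CPM, with a log2FC of 1.14 (SE 0.20, Padj = 2.51e-04 by edgeR) for P14 versus P1. MiR-381-5p, the rare arm of an abundant hairpin, rose from 16.08 ± 1.59 to 31.7 ± 3.79 normalised CPM, with a log2FC of 0.98 (SE 0.23, Padj = 0.00211 by edgeR). The miR-299a-5p readout went from 248 ± 18.3 to 427 ± 19.3 normalised CPM, with a log2FC of 0.78 (SE 0.22, Padj = 0.00786 by edgeR).

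Members that share a seed did not always move together. MiR-410-5p fell from 44.2 ± 4.73 at P1 to 4.03 ± 1.28 normalised CPM at P14, whereas miR-494-5p, with the same seed, had a log2FC of 1.05 (SE 0.46, Padj = 0.0714 by edgeR), from 1.07 ± 0.0840 to 2.22 ± 0.629 CPM. MiR-1193-5p rose with a log2FC of 0.58 (SE 0.22, Padj = 0.0371 by edgeR) while miR-379-5p, with the same seed and far more abundant, fell. Differences between such members were not tested.

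**Figure D3:**
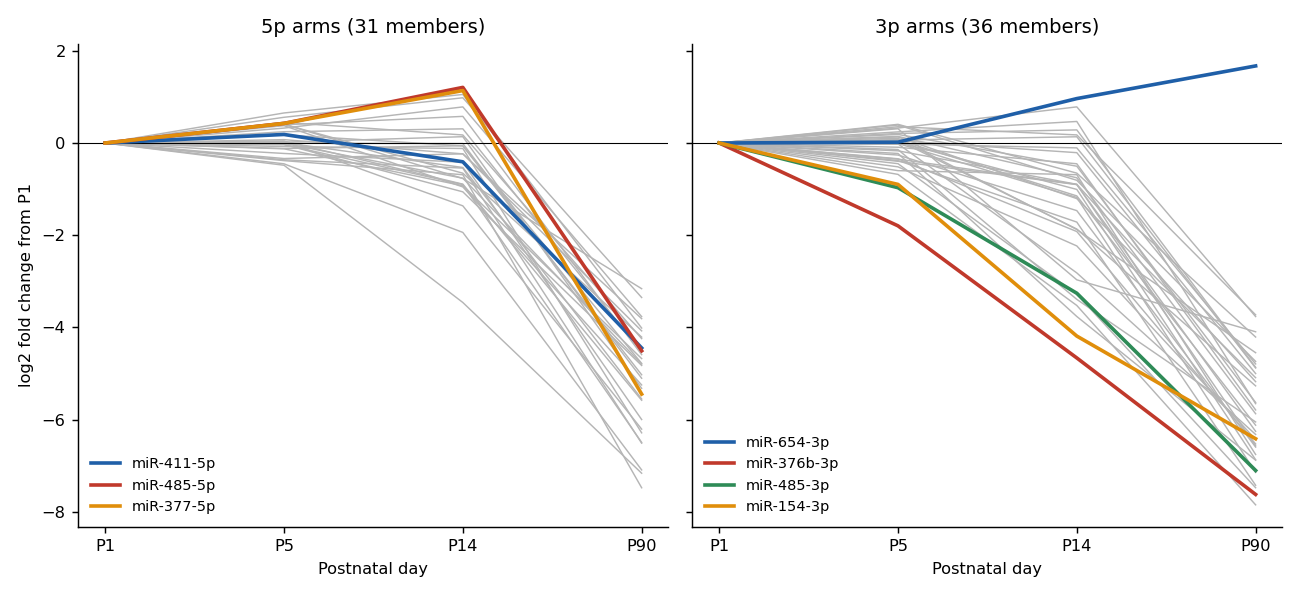
Log2FC from P1 (edgeR) by postnatal day for 31 5p arms and 36 3p arms, 1 line per member; the 6 members with no adult count are left out. MiR-485-5p (1.21) and miR-377-5p (1.14) lay highest at P14 among the coloured 5p arms, whereas miR-376b-3p (-4.66) and miR-154-3p (-4.19) lay lowest among the 3p arms, and miR-654-3p alone was above 0 at P90.

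The arms of the cluster differed in the second week. Of 37 3p arms tested, 28 fell and 1 rose for P14 versus P1, with a median log2FC of -1.15. Of 36 5p arms tested, 14 fell and 5 rose, with a median of -0.41. Over all miRNAs tested, 28.8% fell and 20.3% rose. Both arms of miR-299b are included here. The 1 3p arm that rose was miR-299b-3p, the same readout as miR-299a-5p among the 5p arms that rose. Outside the Dlk1-Dio3 region, miRNAs with at least 10 normalised CPM at P1 had medians of 0.06 over 120 3p arms and -0.10 over 135 5p arms. The 58 members of the cluster above the same level had medians of -1.08 over 32 3p arms and -0.32 over 26 5p arms.

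The timing of the fall can be read as the part of the P1 to P90 log2 change that was already present at P14. Over these 58 members its median was 14.15%, with a range from -29.3 to 65.3%. It was 50% or more in 4 members, miR-154-3p, miR-376b-3p, miR-369-3p and miR-376a-3p, all of them 3p arms. It was under 10% in 25 members, 17 of them 5p arms.

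Both arms of a hairpin come from the same precursor and the same library, so their ratio does not depend on the scaling of the libraries. The log2 ratio of 5p to 3p counts (0.5 added to each) was compared between ages with limma over all 250 hairpins with both arms tested, 36 of them in the cluster. Because the facing arms of miR-299a and miR-299b are one readout, their ratios mirror each other, and miR-299a alone is counted below, which leaves 35 hairpins of the cluster. A difference across the ages was called for 25 of the 35, beside 51.2% of all hairpins.

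For P5 versus P1, 2 hairpins were called, miR-376b and miR-485, and no other hairpin of the table was (0.8% of 250). For P14 versus P1, 21 of 35 were called (38% of all hairpins), 17 of them towards the 5p arm (21.6% of all). For P90 versus P1, 17 were called (36.8%), 14 of them towards the 5p arm (19.2%). Some of these adult calls rest on arms with few or no counts, as given below. The 3p arm was the more abundant in 26 of the 35 hairpins at P1 and P5, in 20 at P14 and in 24 at P90.

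In miR-485 the leading arm changed. The log2 ratio was -2.73, -2.68 and -2.45 at P1, -1.20, -1.25 and -1.21 at P5, 2.04, 1.84 and 1.70 at P14 and -0.05, -0.11 and 0.07 at P90, so that the 3p arm led at P1 and P5, the 5p arm led at P14, and the arms were level at P90. The difference was 1.40 (SE 0.11, limma Padj = 1.82e-05) for P5 versus P1, 4.48 (SE 0.11, limma Padj = 3.30e-10) for P14 versus P1 and 2.59 (SE 0.11, limma Padj = 2.77e-08) for P90 versus P1. At P14 the 3p arm had fallen and the 5p arm had risen, as given above.

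In miR-376b the ratio moved in 1 direction over all ages. It was -3.31, -3.43 and -3.43 at P1, -1.09, -1.24 and -1.21 at P5, 0.52, 0.25 and 0.69 at P14 and 1.04, 1.03 and 1.11 at P90, from a geometric mean of 0.0954 5p reads per 3p read at P1 to 2.09 at P90. The difference for P90 versus P1 was 4.45 (SE 0.11, limma Padj = 4.79e-10). The 5p arm stood at 228, 188 and 191 at P1, 242, 289.8 and 274 at P5, 116, 96.0 and 144 at P14 and 23.5, 15.11 and 29.6 at P90 normalised CPM and had the least negative adult log2FC among members with at least 10 CPM at P1, -3.16 (SE 0.23, Padj = 4.65e-09 by edgeR), compared with -7.62 for its 3p arm.

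The miR-154 ratio was -3.69, -3.35 and -3.68 at P1, -2.17, -3.01 and -2.65 at P5, 0.45, 0.54 and 0.16 at P14 and -0.51, -1.63 and -1.09 at P90. It rose by 3.96 (SE 0.29, limma Padj = 1.84e-06) for P14 versus P1 and lay between the P1 and P14 values in the adult, by 2.50 (SE 0.29, limma Padj = 8.40e-05) above P1. MiR-154-5p had log2FCs against P1 of -0.24 at P14 (edgeR Padj = 0.478) and -3.81 at P90 (edgeR Padj = 9.18e-09), so the P14 ratio followed the fall of the 3p arm.

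MiR-543 kept its 3p arm in the lead at all ages, at log2 ratios of -6.26, -6.28 and -6.22 at P1, -5.93, -5.78 and -5.73 at P5, -2.81, -3.02 and -3.13 at P14 and -3.81, -4.08 and -3.72 at P90. Its change was 3.26 (SE 0.12, limma Padj = 7.17e-09) for P14 versus P1 and 2.39 (SE 0.12, limma Padj = 1.24e-07) for P90 versus P1. MiR-543-5p was at 62.9 ± 3.19 normalised CPM at P1 and 62.4 ± 9.58 at P14 (SD, n = 3), within its spread.

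Further hairpins, named after their values were seen, showed the same P14 shift with a partial return at P90. The mean log2 ratio of miR-369 went from -3.08 at P1 and -3.06 at P5 up to 0.28 at P14 and back to -1.79 in the adult. In the same order of ages, the means of miR-409 were -1.80, -1.43, 0.26 and -0.60, and for miR-382 they were 1.05, 1.24, 3.23 and 1.76. In miR-376a the ratio rose to 4.03 at P14 and was 1.54 at P90, which did not differ from the 1.14 of P1 beyond the threshold (limma Padj = 0.164). Not all hairpins moved this way, since 4 of 35 were called towards the 3p arm for P14 versus P1. The log2 ratio of miR-410 was -6.69, -6.12 and -6.45 at P1 and lower, at -8.88, -9.46 and -8.39, at P14. At P90 it was -7.34, -8.29 and -5.47, with 3, 1 and 10 counts of the 5p arm.

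MiR-411 moved steadily towards its 5p arm, with mean log2 ratios of 1.71, 1.83, 2.45 and 3.38 from P1 to P90, a difference of 1.67 (SE 0.09, limma Padj = 2.89e-07) for P90 versus P1. MiR-329 moved the other way, by -0.76 (SE 0.09, limma Padj = 6.80e-05), as did miR-134 with -1.87 (SE 0.37, limma Padj = 0.00264) and miR-496a with -1.62 (SE 0.31, limma Padj = 0.00207). The 5p arm of miR-496a had no adult count, so its ratio there depends on the count that was added. The 3p arm of miR-134 had only 6, 1 and 3 adult counts.

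The adult changes of miR-1197 (6.51), miR-758 (3.75) and miR-323 (2.29) towards 5p were among the 8 largest, as was that of miR-381 (2.52 (SE 0.19, limma Padj = 3.01e-06)). In miR-1197, however, the adult counts were 0, 0 and 0 for the 5p arm and 0, 0 and 3 for the 3p arm. In miR-758 they were 0, 0 and 0 for 5p and 4, 6 and 0 for 3p. The adult ratios of both hairpins thus depend on the count that was added. The 5p arm of miR-323 had 1, 2 and 4 adult counts. The miR-758 call was lost with 5 of the libraries left out in turn. With 5 counts added to each arm in place of 0.5, 27 hairpins of the cluster were called for P90 versus P1, with miR-299a and miR-299b counted apart.

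**Figure D4:**
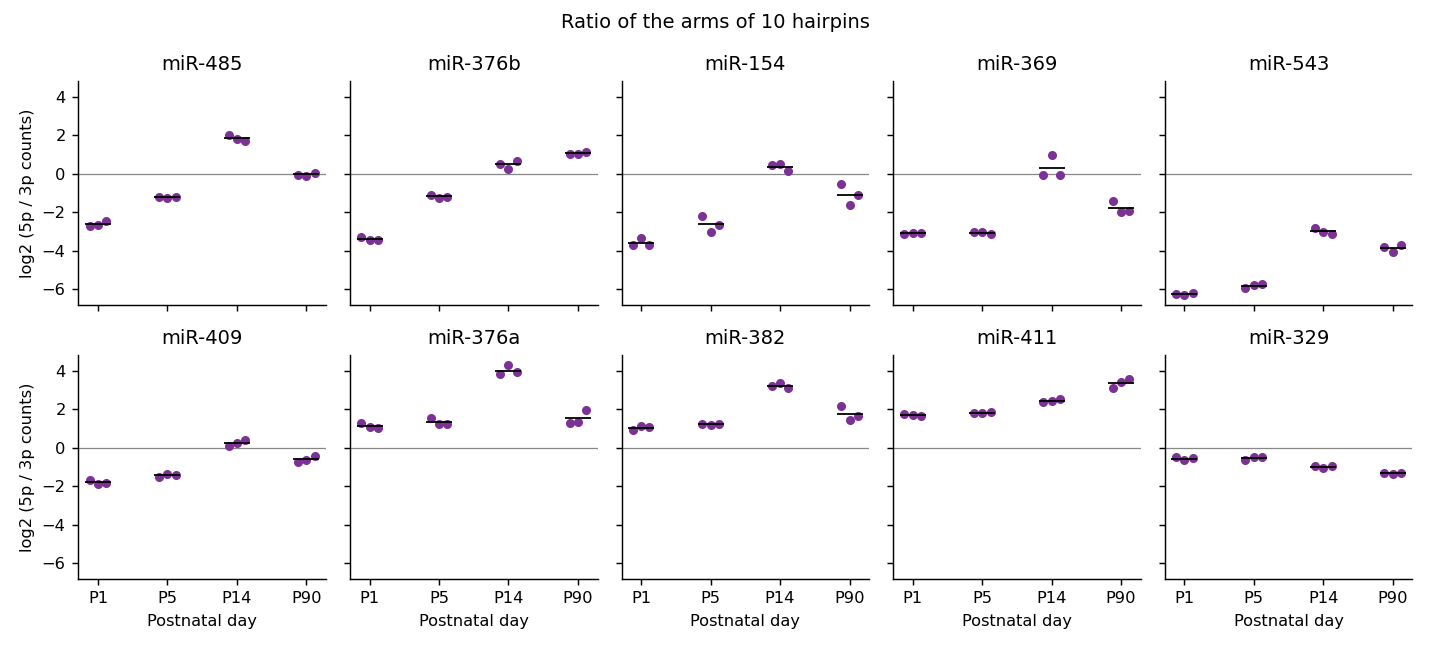
Log2 ratio of 5p to 3p counts (0.5 added to each) of 10 hairpins in each library by postnatal day. Points are libraries, bars are means of 3 and the grey line marks equal arms. MiR-485 passed from -2.62 at P1 to 1.86 at P14 and -0.03 at P90, miR-376b ended at 1.06, and miR-329 moved towards its 3p arm.

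The base composition of a miRNA moved with these P14 values. For miRNAs outside the Dlk1-Dio3 region, the deviation of log2 normalised CPM from the miRNA's own mean over all libraries was fitted on GC content. The slopes were 0.36 to 0.56 log2 units per 10 percentage points in the P14 libraries. They were -0.46 to -0.24 in the P90 libraries and -0.09 to 0.02 in those of P1 and P5. Because that mean is shared by all libraries, the slopes of the ages depend on each other. For P14 versus P1, Pearson's r between GC content and log2FC was 0.34 over 54 members of the cluster and 0.36 over 230 miRNAs outside the region, all measured in the same libraries. For the change in arm ratio at P14, r with the GC difference of the arms was 0.27 over 22 hairpins of the cluster and 0.54 over 50 outside the region.

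With the GC trend removed from each library, 42 members were lower and 7 higher for P14 versus P1, and with the trend fitted on miRNAs outside the region alone, 41 were lower and 7 higher. The part of base composition in the arm ratios was not tested. Besides, the 21 members above 10 normalised CPM at P1 that begin with A had a median log2FC of -1.01 for P14 versus P1 and the 24 that begin with U -0.67, whereas 60 and 99 miRNAs outside the region had 0.14 and -0.19.

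**Figure D5:**
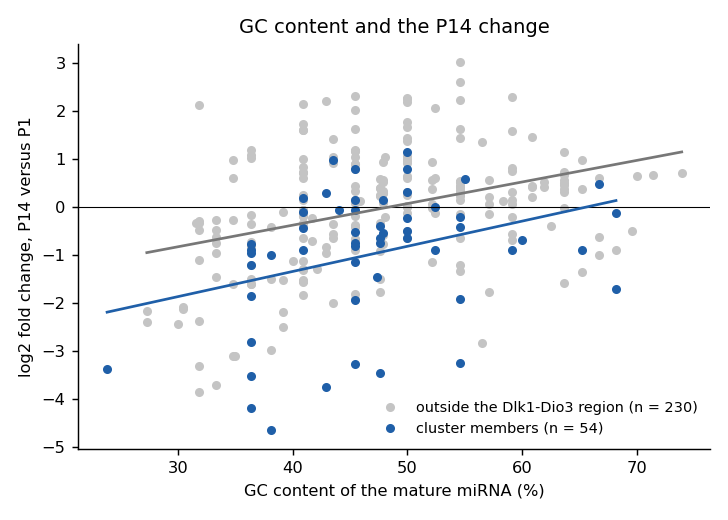
Log2FC for P14 versus P1 (edgeR) against the GC content of the mature sequence, for 54 members of the cluster and 230 miRNAs outside the Dlk1-Dio3 region with a mean of at least 10 normalised CPM. Lines are least-squares fits, with slopes of 0.52 and 0.45 log2 units per 10 percentage points.

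From P14 to P90 the members fell together. Of 73 members, 68 fell and none rose, 93.2% beside 59.1% of all miRNAs called and 36.7% called lower. Members without an adult count could not have risen here, and without the rows of miR-299b 66 of 71 fell. The median log2FC was -4.69, and that of all miRNAs was -0.55. The 3p arms, of which 35 of 37 fell, had a median of -4.55, and the 5p arms, of which 33 of 36 fell, had -4.84. The 5 members without a call were miR-1197-5p, miR-758-5p, miR-544-5p, miR-539-3p and miR-654-3p, all with a mean under 1 normalised CPM at P14.

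Against P1, the most negative adult log2FCs among members with at least 10 normalised CPM were, besides miR-380-3p and miR-543-3p, those of miR-666-3p (-7.42), miR-376b-3p and miR-410-5p (-7.16). The least negative were those of miR-376b-5p, miR-381-5p (-3.35), the miR-299a-5p readout with its facing arm (-3.76 in both) and miR-154-5p (-3.81). MiR-376b-5p was 8.93-fold lower with TMM factors, and its log2FC ranged from -5.46 with library totals to -1.30 with upper-quartile factors. The sign of 72 of the 73 members was negative for P90 versus P1 under all 4 scalings of the libraries, although the median of the members ranged from -7.67 with library totals to -3.70 with upper-quartile factors. Over the same scalings the median of all miRNAs ranged from -2.97 to 1.177.

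In 10 of the members tested, the P90 libraries together had at most 3 counts. The 6 with no adult count were miR-1197-5p, miR-758-5p, miR-544-5p, miR-544-3p, miR-668-5p and miR-496a-5p. With a floor of 3 counts over the 3 adult libraries, miR-496a-5p was at least 90.4-fold lower than at P1, miR-668-5p at least 33.2-fold, miR-544-3p at least 28.0-fold, miR-544-5p at least 12.7-fold and miR-758-5p at least 5.55-fold. MiR-1197-5p had 10 counts at P1, all in 1 library, which allows a bound of 1.29-fold only.

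The other 4 members had 1 to 3 counts in all P90 libraries together. MiR-487b-5p was 209-fold lower (95% interval of the counts 37.5 to 8262), miR-1197-3p 93.5-fold (32.0 to 453), miR-376c-5p 30.0-fold (10.3 to 145) and miR-494-5p 16.9-fold (5.79 to 82.0). These intervals cover counting error only.

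MiR-654-3p went against the rest of the cluster. Its raw counts were 17, 18 and 15 at P1, 15, 11 and 26 at P5, 30, 31 and 23 at P14 and 23, 23 and 16 at P90, so that all P14 libraries held more reads than all P1 libraries, and the P90 libraries overlapped with both. On the normalised scale these were 0.450, 0.415 and 0.357 at P1, 0.384, 0.264 and 0.587 at P5, 0.826, 0.764 and 0.804 at P14 and 1.37, 1.22 and 1.33 at P90 CPM, and the log2FC for P90 versus P1 was 1.67 (SE 0.48, Padj = 0.00646 by edgeR). With library totals in place of TMM factors it was -0.58, and without the filter on low counts the call was lost. Its 5p arm had no count.

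The make-up of the cluster changed as it fell. The share of all cluster counts taken by miR-411-5p was 13.4, 12.4 and 13.0 at P1 and 14.2, 15.4 and 15.2 at P5, between 17.8 and 19.4 in the P14 libraries, and 22.9 to 26.0 percent in the adult, so that it rose without overlap between P1, P14 and P90. MiR-379-5p held 15.0, 15.7 and 13.9 at P1, 14.9, 14.8 and 15.3 at P5, 17.5, 14.09 and 17.9 at P14 and 22.2, 21.99 and 22.3 at P90 percent, and its P14 libraries overlapped with those of P1 and P5. Together the leading 2 members held 27.8% ± 0.80 of the cluster at P1 and 46.7% ± 1.60 at P90 (SD, n = 3).

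The inverse Simpson index of these shares, an effective number of members, was 14.4 to 15.0 in the P1 libraries and 13.3 to 13.6 in the P5 libraries. It had dropped to 10.3 to 11.7 in the P14 libraries and 7.54 to 8.38 in the adult. Meanwhile, miR-543-3p went from 5.45% ± 0.153 to 1.07% ± 0.190 and 1.28% ± 0.0618, miR-487b-3p from 6.56% ± 0.304 to 5.47% ± 0.398 and 1.96% ± 0.206, and miR-410-3p from 4.29% ± 0.146 to 4.05% ± 0.447 and 1.54% ± 0.0571 at P1, P14 and P90 (SD, n = 3). Thus miR-543-3p lost its share by P14, whereas miR-487b-3p and miR-410-3p lost theirs between P14 and P90.

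To test each member against the cluster as a whole, the summed counts of the members were used as the library size. For P90 versus P1, 47 of 73 members departed from the total, 25 below it and 22 above it. For P14 versus P1, 42 departed, 18 below and 24 above, and a member above the total need not have fallen. Of all miRNAs tested, 84.3% and 55.3% differed on this scale. These shares are no baseline for the members, since most miRNAs outside the cluster did not fall as far as its total. The members are parts of the total, so any change in make-up gives departures in both directions. Padj was adjusted over all miRNAs tested. MiR-411-5p departed upwards by 0.93 (SE 0.12, edgeR Padj = 4.12e-06) and miR-379-5p by 0.58 (SE 0.13, edgeR Padj = 7.73e-04) for P90 versus P1, and miR-487b-3p departed downwards by -1.75 (SE 0.14, edgeR Padj = 1.15e-08).

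Among members that passed, the largest departures for P90 versus P1 in the downward direction belonged to miR-496a-5p and miR-668-5p, both without adult counts, and, from the least to the most negative of the next, to miR-543-3p (-2.09), miR-376b-3p (-2.25) and miR-380-3p (-2.47). In the upward direction they belonged to miR-654-3p (7.09), miR-376b-5p (2.20), miR-381-5p (2.02), miR-134-3p (1.64) and miR-299b-3p (1.57). The value of miR-134-3p rests on 6, 1 and 3 counts in the P90 libraries.

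The place of a hairpin in the cluster bore little relation to the change of its more abundant arm. Over the more abundant arm of 32 hairpins with a position and at least 10 normalised CPM at P1, Spearman's rho between the distance from miR-379 and the log2FC was -0.10 for P14 versus P1 and -0.20 for P90 versus P1. The P90 log2FCs of these arms ranged from -7.85 to -4.21. These arms were chosen by their level at P1, from which the changes are measured as well. Another choice of arm could give other values. For example, miR-485 entered with its 3p arm (-3.26 for P14 versus P1), whereas its 5p arm had 1.21.

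Other miRNAs of the Dlk1-Dio3 region fell as well. All 10 tested miRNAs antisense to Rtl1, a retrotransposon-derived gene, fell from P1 to P90, with a median log2FC of -5.25 and a range from -7.70 to -4.52. Of 23 further miRNAs tested from the region, 21 fell and 1 rose, with a median of -5.88. Of all miRNAs tested, 41.2% were called lower and 25.2% higher. At P14 against P1 the medians were -0.46 and -0.85, compared with -0.76 in the cluster.

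Levels of markers of other cell types moved with age in the same libraries. The 4 miRNAs of a mesenchymal (fibroblast) list all fell from P1 to P90, from a summed level between 11209 and 13599 to one between 1862 and 2650.2 normalised CPM. The endothelial and smooth muscle list had 4 of 4 higher at P90, the blood cell list 2 higher and 2 lower of 6, and the neural list 2 higher of 5 tested, at 110 to 222 normalised CPM at P1 and 214 to 267 at P90. The part of the cell make-up of the muscle in the fall of the cluster was not tested.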

How the data were processed

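Small RNA reads of 12 quadriceps libraries were processed by the authors, who trimmed them with cutadapt 1.18, aligned them to GRCm38 with Bowtie2 2.4.1 and assigned them to mature miRNAs as counts with featureCounts 2.0.1, per the submitters' processing notes. The table was deposited as raw counts with no normalization, and strand and overlap options of the counting were not given in the sources used here. Sample titles gave the age and the replicate number of each library. The members, lists and tests were chosen with earlier results of these data known.

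Counts were analysed in R 4.3.3 with edgeR 4.0.16 (filterByExpr, TMM factors, 1 quasi-likelihood model with a mean per age over all 12 libraries, 2-sided F-tests, Benjamini-Hochberg adjustment over 809 miRNAs, call at Padj under 0.05). SEs were derived from the F statistic. Departures were fitted with the summed member counts as library size, and arm ratios with limma 3.58.1 (trend) over 250 hairpins. In simulated counts for P90 versus P1 over 778 miRNAs, 76.5% of 4-fold and 50% of 2-fold changes were recovered. Replicate numbers did not pair the libraries.

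Members were named by rule: the 10 highest at P1, those called at P5, the 5 lowest and 5 highest log2FCs at P14 and P90 among members with at least 10 CPM at P1, the 5 furthest departures called each way, the 8 largest arm changes called at P90, and members at a floor of 3 counts. Alternatives were RLE, upper-quartile and total-count scaling, no filter, DESeq2 1.42.0, a replicate block, GC offsets, only the ages compared, other pseudocounts and leaving out each library. The GC trend fitted outside the region, and for single members the fit of only the ages compared, were added after seeing the data. Counting intervals cover counting error only.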

Additional observations from a re-analysis of the deposited data

How the results depend on the processing

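Of the counts of calls recomputed under alternatives, 180 stayed within 1.5 times of the reported count and 5 did not. For P5 versus P1 the count of 3 members was 10 with library totals, 6 with DESeq2 and 13 with only the P1 and P5 libraries in the fit, and it was 2 without P5 replicate 3 and 5 without P90 replicate 2. For the arm ratios at P90 versus P1 the count of 17 was 27 with 5 counts added in place of 0.5, and it was 15 to 22 with 1 library left out, lowest without P1 replicate 1 or 3 and highest without P90 replicate 1. Of 1083 values of single members or hairpins under alternatives, 1058 kept their direction and their side of the threshold, 12 newly passed it, 8 no longer passed it and 5 changed sign. The sign changed for miR-654-3p at P90 versus P1 (-0.58 with library totals) and for miR-541-5p at P14 versus P1 (0.25 with upper-quartile factors, 0.0910 and 0.0917 with the GC trend removed over all or over outside miRNAs, 0.0190 with only these ages); the cause was not tested. MiR-411-5p at P14 versus P1 passed the threshold in 12 alternatives. With the replicate block, 47 members were called for P14 versus P1 and 72 for P90 versus P1, compared with 48 and 72 without it, and the only call of a named value it changed was the adult arm ratio of miR-758. Depth limits the 10 tested members with at most 3 counts in the adult libraries together.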

Other observations

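In the P90 libraries 53 to 57 of its 75 members had at least 10 counts, and 9 to 12 had none. The summed level of the members was 88135 ± 5574 normalised CPM at P1 and 86739 ± 3848 at P5. It was 46586 ± 1683 normalised CPM in the P14 libraries and 2123 ± 534 in the adult (SD, n = 3 at each age), so the adult sum was 41.5-fold lower than that of the newborn on this scale. The share of raw counts held by the members, which uses no TMM factors, was 203-fold lower in the adult, with a mean of 0.0681% compared with 13.8% at P1.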
